A study of Mus musculus with 28 samples.

Results

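The right ventricle (RV) of Pkp2-deleted hearts that received the higher dose of TN-401 was compared with the RV of control hearts, to describe which transcripts still differed from control after treatment. The comparison takes 6 of the 28 libraries of the series, namely 3 treated (6E13) and 3 control (WT) RV libraries, chosen by their labels alone, and each library came from a different C57BL6 mouse. WT animals were Cre-negative Pkp2 fl/fl littermates given HBSS buffer 1 week before tamoxifen. The 6E13 animals carried αMyHC-Cre-ER(T2) and Pkp2 fl/fl, and received 1 retro-orbital dose of TN-401, an adeno-associated virus (AAV9) carrying human PKP2, at 6E13 vector genomes per kg, 1 week before tamoxifen. By its title the series was sampled at about 10 weeks, which is not the age of the mice, since the study took hearts weeks after tamoxifen. The mice were adults of a range of ages by the study's methods, with per-animal ages not used here. The cKO animals (n = 4 RV libraries), with the same Cre and floxed alleles and buffer in place of the vector, are set beside as the untreated level. The study reports early death of such buffer-treated animals in its other cohorts. These cKO libraries may thus come from survivors or from another time, and the sample titles do not say which. The 3E13 animals (n = 2 RV libraries) had the Cre and floxed alleles and received TN-401 at 3E13 vector genomes per kg. They entered the fit for the shared estimate of spread, and a few of their levels are given below without a test. Tamoxifen removes mouse Pkp2 through a Cre that is active in cardiomyocytes only, so other cells of the ventricle keep the gene. WT lacked the Cre, the deletion and the vector at once, so the parts these play in any difference between 6E13 and WT cannot be told apart.

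Plakophilin-2 is a desmosome protein that links desmosomal cadherins to desmoplakin at the intercalated disc, where heart muscle cells hold together. Loss-of-function variants of PKP2 are a leading known genetic cause of arrhythmogenic right ventricular cardiomyopathy, in which muscle is lost and replaced by scar and fat, often most visibly in the RV. Scar is laid down by fibroblasts that secrete collagens and matricellular proteins, and injured myocardium also draws in macrophages and lymphocytes.

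RNA was sequenced from ventricle pieces and quantified per gene as estimated counts, with totals of 23773518 to 30779568 in the WT and 25840647 to 31331762 in the 6E13 libraries. Levels are given below as CPM, the counts-per-million of edgeR after trimmed-mean scaling, differences as log2 fold change of 6E13 against WT ± standard error (SE), and a gene is called when edgeR's quasi-likelihood test gave a Benjamini-Hochberg adjusted p under 0.05 over all genes tested. CPM is not divided by gene length, so levels are compared between libraries of 1 gene and not between genes. In bulk tissue, fewer cells of a type and less RNA per cell cannot be told apart. Read from sex-specific transcripts, WT held 1 female and 2 males and 6E13 held 2 females and 1 male, so sex was unevenly spread over the groups. The mitochondrial share of counts was 38.2% ± 2.14 (SD, n = 3) in WT and 31.9% ± 3.00 (SD, n = 3) in 6E13, a difference of -6.34 percentage points whose exact permutation p, two-sided, was 0.1, the smallest that 3 against 3 libraries can give.

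Of 17307 genes tested, 151 were called (0.872%), 147 of them higher (0.849%) and 4 lower in 6E13 (0.0231%). In all 151 the 3 libraries of one group lay wholly beyond the 3 of the other. Over all genes tested, 12.3% were apart with 6E13 higher and 8% with 6E13 lower. The calls were made on these same libraries, so the lack of overlap adds no support of its own. Before adjustment, 1612 genes were higher (9.31%) and 486 lower (2.81%) at p under 0.05. In the same fit 6468 genes were called between cKO and WT (37.4%) and 3825 between 6E13 and cKO (22.1%). The median log2 fold change over all genes tested was 0.00, and over the called genes it was 1.70. The number called moved with the libraries used: it was 20 without 6E13 animal 250, 55 without 6E13 animal 631, 22, 15 and 26 without WT animals 636, 637 and 647, and 41 with sex as a covariate, of which 20, 54, 15, 11, 19 and 38 were among the 151. Without 6E13 animal 645 the number called was 182. Leaving out a cKO or 3E13 library bears on the estimates that the groups share. The number was 39 without either 3E13 library, 44 without cKO animal 257 and 279 without cKO animal 180. The sign of every one of the 151 differences was kept in each of the 21 alternatives in which the gene was tested, and 7 genes were called in every one of them: the vector transcript, Pkp2, Sfrp2, Cilp, Mfap4, Myh7 and Ccl5.

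The transcript of the vector and the deleted gene come first, as a check of the labels. Human PKP2 transcript was at 466, 305 and 295 CPM in the 3 6E13 libraries and had 0 counts in each WT library, and the 6E13 mean of 355 CPM is at least 2407-fold above the 0.148 CPM that 3 counts would give in the shallowest WT library. Mouse Pkp2 was at 114, 110 and 122 CPM in WT and at 43.7, 43.3 and 34.7 CPM in 6E13. Every treated library lay far below every control library, and the log2 fold change was -1.51 ± 0.14 (adjusted p = 0.000654). The cKO mean of mouse Pkp2 was 34.4 CPM, and 6E13 did not pass the test against it (log2 difference 0.24, adjusted p = 0.207). Esr1, the estrogen receptor whose ligand-binding part is built into the Cre fusion, was at 1.97, 2.04 and 1.98 CPM in WT and 3.56, 3.87 and 4.37 CPM in 6E13 and did not pass (adjusted p = 0.085). These levels matched the labels of all 6 libraries.

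**Figure D1:**
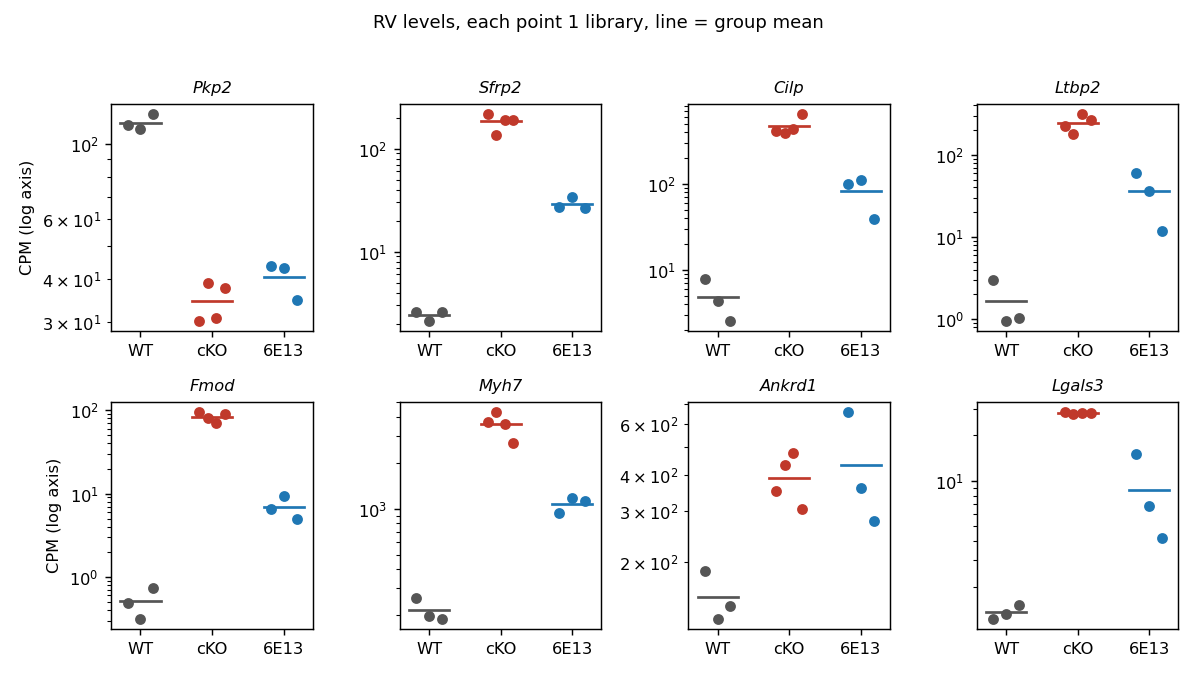
Levels in each RV library (points, CPM on a log axis) of WT, cKO and 6E13, with a line at each group mean, for Pkp2 and 7 called genes. Mouse Pkp2 at 34.7 to 43.7 CPM in 6E13 lay near the cKO mean of 34.4, whereas Sfrp2, Cilp, Ltbp2, Fmod, Myh7 and Lgals3 lay between the WT and cKO libraries, and for Ankrd1 the 6E13 mean (431 CPM) was at the height of the cKO mean (391 CPM).

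The remaining parts of the intercalated disc did not pass the test, where 0.872% of all genes tested did. Of 23 desmosome and intercalated disc genes tested besides Pkp2, none was called by edgeR, 3 were higher and none lower at an unadjusted p under 0.05, and their median log2 fold change was -0.05. Desmoplakin (Dsp), which anchors the desmosome to intermediate filaments, was at 1541, 1987 and 1642 CPM in WT and 1625, 1916 and 1739 CPM in 6E13, with a log2 difference of 0.03 and a 95% interval of -0.38 to 0.44. Plakoglobin (Jup), the other armadillo protein of the plaque, had a difference of -0.08 with an interval of -0.36 to 0.21. The cadherins Dsg2 and Dsc2 had differences of -0.46 (interval -1.04 to 0.13) and -0.24 (interval -0.70 to 0.23). Gja1, which encodes the gap junction protein connexin 43, had a difference of -0.15 (interval -0.63 to 0.34). The groups overlapped for all 5 genes, and DESeq2 called 1 of the 23, higher.

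Extracellular matrix genes made up the largest called group. Of 42 matrix and fibrosis genes tested, 19 rose and none fell, 40 were higher at an unadjusted p under 0.05, and their median log2 fold change was 1.67 against 0.00 over all genes; the same median for cKO against WT was 3.5. Without 6E13 animal 250, 5 of the 42 were called (Cilp, Comp, Fmod, Ltbp2 and Tnc), 36 were higher at an unadjusted p under 0.05 and the median was 1.17. Without animal 631, 7 were called, without animal 645, 31 were, and with sex as a covariate 4 were. The genes below are ordered from secreted matrix regulators to structural collagens.

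Cilp, a matrix protein that binds and restrains TGF-β1, was at 7.72, 4.30 and 2.55 CPM in WT and 99.2, 109 and 39.4 CPM in 6E13. All 3 treated libraries lay above every control library, and the log2 fold change was 4.10 ± 0.45 (adjusted p = 0.00269), with the 6E13 mean at 17.7% of the cKO mean. Ltbp2, a fibrillin-binding relative of the latent TGF-β binding proteins, was at 2.95, 0.950 and 1.03 CPM in WT and 59.6, 36.4 and 11.8 CPM in 6E13 (4.47 ± 0.58, adjusted p = 0.00916). Fmod, fibromodulin, a small proteoglycan that regulates collagen fibril assembly, was at 0.492, 0.317 and 0.741 CPM in WT and 6.51, 9.29 and 4.90 CPM in 6E13 (3.71 ± 0.34, adjusted p = 0.000674). For Ltbp2 and Fmod the 6E13 means were at 14.6% and 8.22% of cKO, and both genes were called lower than cKO, so in these treated ventricles they lay between the control and the untreated level. Comp, a pentameric glycoprotein that bridges collagen fibrils, lay at 3.76% of its cKO mean and yet was still called above WT (2.38 ± 0.36, adjusted p = 0.0166).

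Tnc, Postn and Timp1, which are induced in injured tissue, differed widely between the treated animals. Tnc, tenascin-C, which is scarce in adult heart and appears at sites of tissue injury, was at 1.08, 1.04 and 1.36 CPM in WT and at 216, 21.6 and 9.94 CPM in animals 250, 631 and 645. Each treated animal was above each control, but animal 250 was higher than the others by a wide margin and higher than the cKO mean of 58.7 CPM, and the log2 fold change of 6.15 had an SE of 1.13 (adjusted p = 0.0367). Postn, periostin, a marker of activated cardiac fibroblasts, was at 42.7, 24.8 and 28.8 CPM in WT and at 672, 191 and 82.0 CPM in animals 250, 631 and 645 (3.30 ± 0.64, adjusted p = 0.0423). Timp1, an inhibitor of matrix metalloproteinases, was at 0.640, 0.453 and 0.577 CPM in WT and 15.6, 5.45 and 3.05 CPM in the same order (3.85 ± 0.66, adjusted p = 0.0306). The order 250, 631, 645 was the same for all of Tnc, Postn and Timp1.

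Among fibril and network proteins, Col12a1, a collagen that sits on fibril surfaces, was at 2.07, 1.36 and 1.19 CPM in WT and 37.2, 9.10 and 5.17 CPM in 6E13 (3.49 ± 0.65, adjusted p = 0.0376). Col1a1 and Col3a1, the main fibrillar collagens of scar, were at 61.4, 61.8 and 44.6 CPM and at 137, 123 and 105 CPM in WT. In 6E13 Col1a1 was at 792, 296 and 127 CPM and Col3a1 at 1332, 683 and 306 CPM. The groups did not overlap, and with log2 fold changes of 2.86 ± 0.60 and 2.67 ± 0.56 both missed the threshold (adjusted p = 0.0514 for each). Further matrix genes that were called, chosen for mention after their values were seen, were Thbs1 (2.29), Col5a2 (2.28), Col8a1 (2.16), Col6a3 (1.5), Bgn (1.41), Loxl1 (1.30), Tgfb3 (1.19), Col6a2 (1.16), Col6a1 (1.13), Mmp2 (1.02) and Tgfb2 (0.78), given as log2 fold changes. These encode a TGF-β-activating thrombospondin, fibrillar and network collagens, the proteoglycan biglycan, a lysyl oxidase that crosslinks elastin, a gelatinase and TGF-β ligands. Tgfbr1, a TGF-β receptor, was also called (0.91), as was Nox4, an oxidase that TGF-β is known to induce in fibroblasts (1.81), and both were picked after their values were seen.

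**Figure D2:**
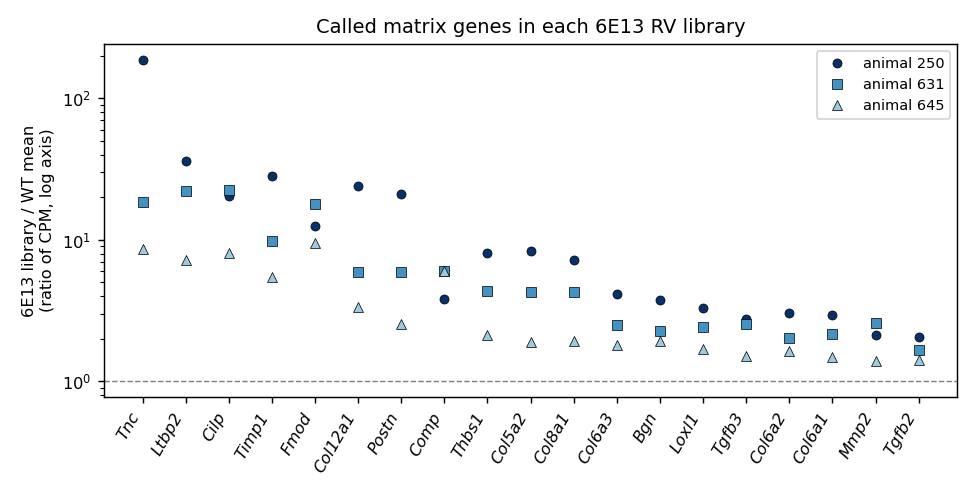
Ratio of each 6E13 RV library to the WT mean (y axis, log scale) for the 19 called matrix genes (x axis), with 1 symbol per animal and a dashed line at a ratio of 1. Every point lies above the dashed line, and animal 250 is the highest for most genes, with Fmod, Cilp, Comp and Mmp2 as exceptions.

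Across all 42 matrix genes animal 250 was the highest of the 3 treated libraries in 35 and animal 645 the lowest in 39. Over the 147 genes called higher, animal 250 was the highest in 113 and animal 645 the lowest in 101. Its mitochondrial share was 28.4%, against 34.0% and 33.1% in animals 631 and 645, and its human PKP2 transcript was the highest of the 3 at 466 CPM. Whether any of these values is tied to the matrix level of that library was not tested. Markers of resting fibroblasts (12 genes, among them Pdgfra, Tcf21 and Dpt) summed to 937 to 1178 CPM in WT and 1382 to 1604 CPM in 6E13, with a median log2 fold change of 0.42; none of the 12 was called by edgeR, 6 were higher at an unadjusted p under 0.05, DESeq2 called 3, and none of these defining markers was at 0 in a library. Epicardial and mesothelial markers (7 genes) summed to 14.4 to 15.9 CPM in WT and 22.9 to 30.4 CPM in 6E13, and none was called by edgeR, 2 were higher at an unadjusted p under 0.05, DESeq2 called 1 and the median was -1.01. The part of the number of these cells in the matrix levels was not tested.

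Of 13 secreted modulators of Wnt signalling tested, 3 were called, all higher, 6 were higher and 1 lower at an unadjusted p under 0.05, and the median log2 fold change was 1.41 (0.26 without animal 250, where Sfrp2 alone was called). Sfrp2, a secreted frizzled-related protein produced by fibroblasts, had the smallest adjusted p of all genes. It was at 2.61, 2.13 and 2.59 CPM in WT and 27.1, 34.1 and 26.2 CPM in 6E13. The treated animals were close to each other here, animal 250 was not the highest, and the log2 fold change was 3.57 ± 0.19 (adjusted p = 7.39e-06), with the 6E13 mean at 15.9% of the cKO mean of 184 CPM. Frzb, a further frizzled-related protein, had a log2 fold change of 1.55 ± 0.23 (adjusted p = 0.0166) and Dkk3, a dickkopf family member, one of 2.4 ± 0.43 (adjusted p = 0.0343). Mfap4, an elastic fibre protein named after its values were seen, was at 7.18, 4.39 and 6.63 CPM in WT and 50.9, 39.2 and 26.2 CPM in 6E13 (2.68 ± 0.32, adjusted p = 0.00421), and like Sfrp2 it was called in all 21 alternatives.

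Of 12 heart failure and fetal programme genes tested 2 were called, both higher, 9 were higher at an unadjusted p under 0.05, and their median log2 fold change was 1.13 (0.63 without animal 250, where Myh7 alone was called). Myh7, the slow β-myosin heavy chain that the mouse ventricle expresses before birth and again under load, was at 259, 198 and 190 CPM in WT and 931, 1169 and 1120 CPM in 6E13. The groups lay far apart with little spread within either, the log2 fold change was 2.32 ± 0.21 (adjusted p = 0.000654), and the 6E13 mean was at 30.03% of the cKO mean of 3574 CPM. Its adult counterpart Myh6 did not pass (-0.10, adjusted p = 0.951). Ankrd1, a stretch-responsive sarcomere and nuclear protein, was at 185, 127 and 141 CPM in WT and 657, 360 and 276 CPM in 6E13 (1.51 ± 0.29, adjusted p = 0.0413), and its 6E13 mean was at 110% of cKO. Ankrd1 was called in 10 of the 21 alternatives, and neither without animal 250 nor with sex as a covariate.

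The natriuretic peptides, secreted by stretched heart muscle, did not pass. Nppb was at 63.5, 30.05 and 30.6 CPM in WT and 136, 81.2 and 72.2 CPM in 6E13, with no overlap (1.22 ± 0.35, adjusted p = 0.139). Nppa was at 17.3, 30.8 and 23.8 CPM in WT and 190, 77.8 and 26.7 CPM in 6E13, so animal 645 lay within the control range (2.04 ± 0.74, adjusted p = 0.271). Sprr1a, a small proline-rich protein induced in stressed cardiomyocytes, was called at 7.27 ± 1.36 (adjusted p = 0.0376), with at most 0.0984 CPM in WT and 24.6, 4.53 and 0.795 CPM in animals 250, 631 and 645. The fitted fold of Sprr1a rests on a control level of only a few counts.

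Few structural and metabolic muscle genes passed the test, and few of all genes tested did (0.872%). Of 27 sarcomere genes tested only Myh7 was called, and the median log2 fold change was -0.14 against -0.75 for cKO. None of 28 calcium handling and ion channel genes was called by edgeR (median -0.15, 1 higher and 2 lower at an unadjusted p under 0.05), and DESeq2 called 1. Among them Ryr2, the calcium release channel of the sarcoplasmic reticulum, had a difference of -0.25, and the groups overlapped. By edgeR none of 34 nuclear oxidative phosphorylation genes was called (median -0.41, 0 higher and 2 lower at an unadjusted p under 0.05), and none of 33 fatty acid genes (median -0.49, 0 higher and 7 lower), and DESeq2 called 0 of the first list and 1 of the second. All 34 oxidative phosphorylation genes had a fold change below 0, from -0.65 to -0.16. Of these 34, 15 lay apart and lower, where 8% of all genes did. For cKO against WT the medians of the 2 metabolic lists were -1.28 and -1.41. The summed level of the fatty acid genes was 9168 to 11989 CPM in WT and 6694 to 8612 CPM in 6E13, and 18 of the 33 genes lay apart and lower, against the 8% of all genes. Of 24 genes of the citric acid cycle and mitochondrial biogenesis, which summed to 9130 to 11210 CPM in WT and 6959 to 8892 CPM in 6E13, 8 lay apart and lower. Of 13 transcripts of the mitochondrial genome, which summed to 436096 to 490962 CPM in WT and 274387 to 366813 CPM in 6E13, 10 did so. Neither edgeR nor DESeq2 called any gene of the last 2 lists, and 3 and 0 of their genes were lower at an unadjusted p under 0.05.

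**Figure D3:**
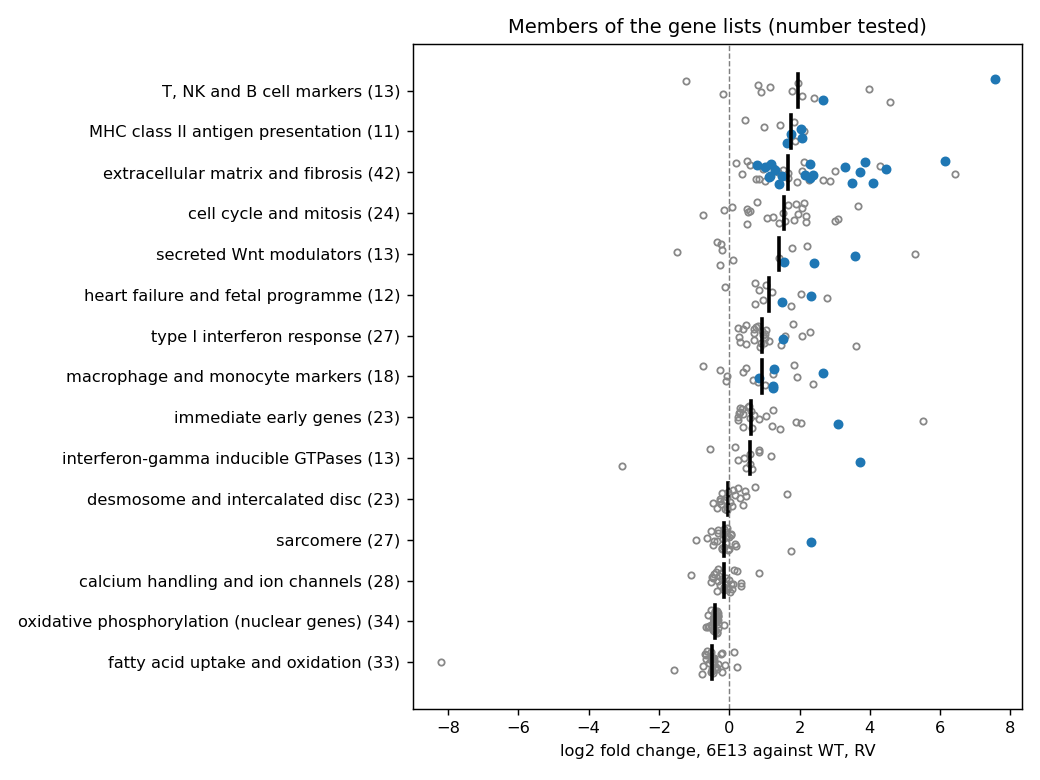
Log2 fold change of 6E13 against WT in RV (x axis) for every tested member of 15 gene lists (rows, number tested in brackets). Filled points are called genes, black bars are list medians and the dashed line is the median of all genes tested. Filled points are most frequent in the matrix list (19 of 42) and are missing from the desmosome, calcium handling, oxidative phosphorylation, fatty acid and cell cycle lists.

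Of 18 macrophage and monocyte markers tested 5 rose, none fell, and the median log2 fold change was 0.93 (0.88 without animal 250, where only Lgals3 was called). Lgals3, galectin-3, a lectin abundant in activated macrophages, was at 1.23, 1.31 and 1.52 CPM in WT and 14.96, 6.82 and 4.20 CPM in 6E13 (2.67 ± 0.38, adjusted p = 0.0134). C1qa, a chain of the first complement component made by resident macrophages, was at 13.6, 13.2 and 18.1 CPM in WT and 37.1, 30.6 and 39.6 CPM in 6E13 (1.26 ± 0.22, adjusted p = 0.0306). C1qa was more even over the treated animals than Lgals3 was, and its partner C1qb behaved alike (1.23, adjusted p = 0.041). Lyz2, a lysozyme of myeloid cells (1.28), and Csf1r, the receptor of macrophage colony-stimulating factor (0.84, named after its values were seen), were also called. The 18 markers summed to 227 to 278 CPM in WT and 448 to 551 CPM in 6E13 without overlap. Itgax, an integrin of dendritic cells and some macrophages, was at 0.492, 0.769 and 0.659 CPM in WT and 9.18, 4.20 and 3.84 CPM in 6E13 (3.16 ± 0.55, adjusted p = 0.0306), and its 6E13 mean was at 95.96% of cKO. Cd44, a hyaluronan receptor of leukocytes and other cells, and Aoah, a lipopolysaccharide-degrading hydrolase of myeloid cells, were called too (1.39 and 3.92), both picked after their values were seen.

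T and NK cell transcripts were low in every library, with the 13 tested markers of T, NK and B cells summing to 8.64 to 10.8 CPM in WT and 18.7 to 27.3 CPM in 6E13. Of these, 2 were called higher, and the median log2 fold change was 1.96 (1.82 without animal 250, where none was called by edgeR and 7 were higher at an unadjusted p under 0.05). Of 16 markers listed, 13 passed the low-count filter. A marker at 0 in WT can pass it only through other groups, so this median may lean upward. Nkg7, a granule protein of cytotoxic lymphocytes, had 0 counts in every WT library and was at 0.953, 0.737 and 1.02 CPM in 6E13, whose mean of 0.902 CPM is at least 6.11-fold above the level of 3 counts in the shallowest WT library. Cd3e, a chain of the T cell receptor complex, was at 0.344, 0.498 and 0.371 CPM in WT and 2.70, 2.84 and 2.16 CPM in 6E13 (2.65 ± 0.46, adjusted p = 0.0306). Of the B cell markers, Cd79a was at 0.442 CPM in WT and 0.384 CPM in 6E13 on average and overlapped between the groups. Ccl5, a chemokine made by T and NK cells, was at 0.394, 0.362 and 0.206 CPM in WT and 1.97, 3.06 and 3.05 CPM in 6E13 (3.06 ± 0.34, adjusted p = 0.00269), and was called in all 21 alternatives. Lck, a T cell kinase (3.58), Trbc2, a T cell receptor constant region (3.47), Klrk1, an activating receptor of NK and T cells (2.88), and Il2rb, an interleukin-2 receptor chain (2.12), were called as well. Ccl5 and these last 4 were picked after their values were seen. For Ccl5, Cd3e, Nkg7, Lck, Trbc2, Klrk1 and Il2rb the 6E13 mean was at or above the cKO mean, at 102% to 154% of it, and none of the 7 passed the test between 6E13 and cKO.

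Of 11 genes of antigen presentation on MHC class II tested, 4 were called, all higher, with a median log2 fold change of 1.75, and 1 of 10 tested was called without animal 250 and 1 of 11 with sex as a covariate. H2-DMb1, part of the peptide-loading complex, was at 1.53, 1.40 and 1.73 CPM in WT and 7.59, 6.15 and 5.43 CPM in 6E13 (2.04 ± 0.26, adjusted p = 0.00909). Cd74, the invariant chain, was at 64.7, 57.9 and 118 CPM in WT and 299, 204 and 249 CPM in 6E13 (1.64 ± 0.32, adjusted p = 0.0423). Control animal 647 was the highest WT library for Cd74 and still lay below every treated library. H2-Ab1, a class II β chain (1.75, adjusted p = 0.0438), and Ctss, the cathepsin that trims the invariant chain (2.07, adjusted p = 0.0226), completed the 4. H2-DMb1, Cd74 and H2-Ab1 had 6E13 means at 109%, 94.2% and 92.5% of cKO, whereas Ctss was at 43.8% and was called lower than cKO.

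A small set of genes, the interferon-γ induced Gbp6 among them, lay above cKO as well as above WT. Over the 146 mouse genes called higher, the 6E13 mean was under the cKO mean in 130, and the median level was 50.5% of cKO. Of these genes 88 were also called lower than cKO and 142 were called higher in cKO than in WT. Over all genes tested, 22.1% were called between 6E13 and cKO and 37.4% between cKO and WT, in either direction. The comparisons share libraries with the one that picked the 146, so these overlaps are not a result of their own. Among the 146, only Gbp6, Gm4841, F830016B08Rik and Dnase1l3 were called higher in 6E13 than in cKO. Gbp6, a guanylate-binding GTPase induced by interferon-γ, was at 1.87, 0.0905 and 3.21 CPM in WT and 27.0, 24.2 and 17.7 CPM in 6E13 (3.72 ± 0.76, adjusted p = 0.0489), against a cKO mean of 4.62 CPM. Gm4841, annotated as a protein-coding predicted gene, was at 4.03, 0.362 and 1.19 CPM in WT and 32.9, 17.1 and 14.8 CPM in 6E13 (3.55 ± 0.73), and its adjusted p of 0.04997 lay just under the threshold. In cKO the Gm4841 mean was 1.14 CPM, below that of WT. F830016B08Rik, picked after its values were seen, was at 63.5, 31.8 and 50.5 CPM in WT and 245, 158 and 116 CPM in 6E13 (1.83 ± 0.31, adjusted p = 0.0301), and its cKO mean of 16.9 CPM was called below WT (-1.52). Dnase1l3, a secreted nuclease of dendritic cells and macrophages picked in the same way, was at 0.197, 0.272 and 0.494 CPM in WT and 2.54, 2.21 and 2.52 CPM in 6E13 (2.88 ± 0.52, adjusted p = 0.0343), with a cKO mean of 0.328 CPM. Without animal 250, none of Gbp6, Gm4841, F830016B08Rik and Dnase1l3 was called. The same held without animal 631, without each of the WT animals and with sex as a covariate. In the 2 3E13 libraries the means were at or above those of 6E13, at 36.7 CPM for Gbp6, 23.5 CPM for Gm4841, 234 CPM for F830016B08Rik and 5.16 CPM for Dnase1l3, and the difference between the doses was not tested here.

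**Figure D4:**
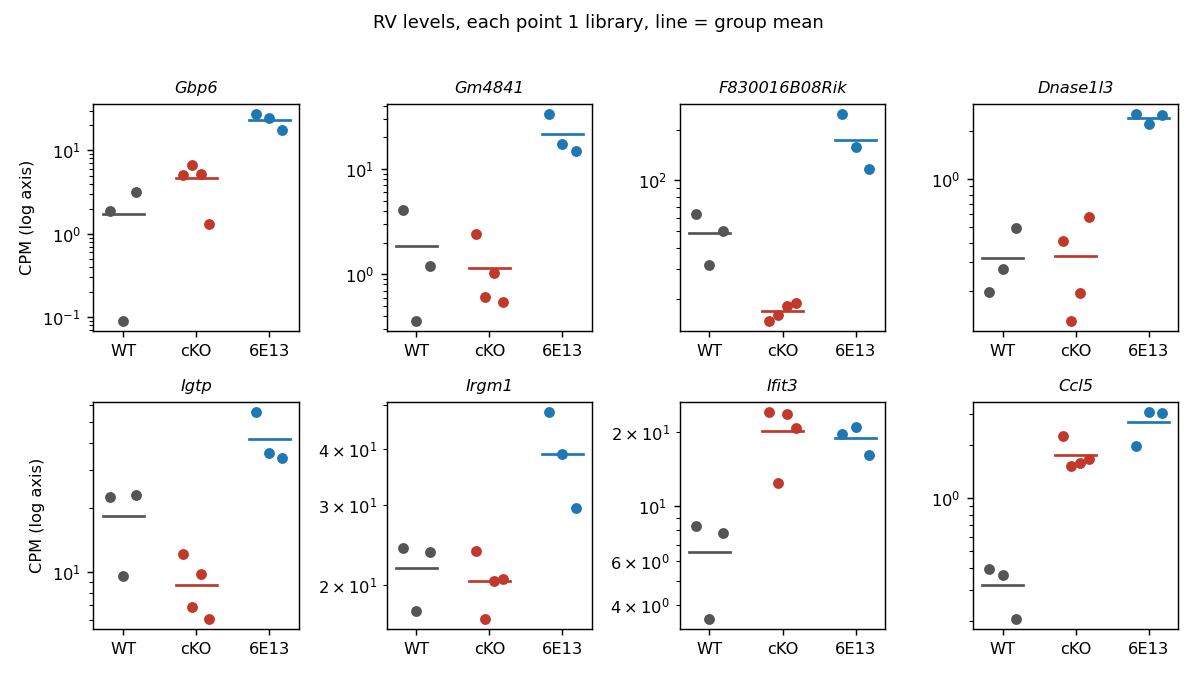
Levels in each RV library (points, CPM on a log axis) of WT, cKO and 6E13, with a line at each group mean, for 7 interferon-related or immune genes and the chemokine Ccl5. Gbp6, Gm4841, F830016B08Rik, Dnase1l3, Igtp and Irgm1 had the highest mean of the 3 plotted groups in 6E13, with F830016B08Rik at 116 to 245 CPM against a cKO mean of 16.9, whereas Ifit3 was as high in cKO (20.2 CPM) as in 6E13 (18.8 CPM).

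As groups, 1 of the 13 listed interferon-γ inducible GTPases was called (Gbp6) and 6 were higher at an unadjusted p under 0.05. Their median log2 fold change was 0.58 in 6E13 and -0.42 in cKO, each against WT. Gm4841 and F830016B08Rik were not on this list, so the count does not cover them. Igtp and Irgm1, GTPases of the same immunity-related family, were at 22.4, 9.55 and 22.98 CPM and at 24.1, 17.5 and 23.7 CPM in WT, and neither passed (adjusted p = 0.158 and 0.0752). In 6E13 Igtp was at 55.6, 36.0 and 34.1 CPM and Irgm1 at 48.1, 38.9 and 29.6 CPM, so the groups did not overlap for either gene. The 13 GTPases summed to 184 to 311 CPM in WT, 356 to 493 CPM in 6E13 and 544 to 802 CPM in 3E13. Of 27 type I interferon response genes 1 was called, 19 were higher at an unadjusted p under 0.05, and the medians were 0.94 in 6E13 and 0.84 in cKO. The called one was Ifit3, an antiviral protein with tetratricopeptide repeats, at 8.36, 3.53 and 7.82 CPM in WT and 19.5, 20.9 and 16.04 CPM in 6E13 (1.52 ± 0.31, adjusted p = 0.0489). Cxcl10, a chemokine induced by interferons, did not pass (3.61 ± 0.88, adjusted p = 0.085).

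The windows around the start sites of called genes were searched for 2 short motifs known from these pathways. The 4 windows shown are of genes from the interferon, antigen presentation and muscle results above. Only windows that held a match were shown, so a match in each of the 4 was settled in advance. Each window runs from 250 bases before to 50 bases after the start site, from RefSeq on GRCm38.p6, and is written 5′ to 3′ on the gene's strand. For Ifit3 and Ctss the capitals mark GAAA, any 2 bases and GAAA again, the core of an interferon-stimulated response element, on either strand. For Ankrd1 and Myh7 they mark CATTCC, the core bound by TEAD factors, on either strand.
Ifit3: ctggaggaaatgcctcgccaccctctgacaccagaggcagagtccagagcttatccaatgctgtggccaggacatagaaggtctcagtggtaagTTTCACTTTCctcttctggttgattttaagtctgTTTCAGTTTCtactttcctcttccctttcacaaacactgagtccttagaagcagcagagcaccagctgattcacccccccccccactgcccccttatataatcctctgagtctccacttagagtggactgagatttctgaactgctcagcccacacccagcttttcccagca
Ctss: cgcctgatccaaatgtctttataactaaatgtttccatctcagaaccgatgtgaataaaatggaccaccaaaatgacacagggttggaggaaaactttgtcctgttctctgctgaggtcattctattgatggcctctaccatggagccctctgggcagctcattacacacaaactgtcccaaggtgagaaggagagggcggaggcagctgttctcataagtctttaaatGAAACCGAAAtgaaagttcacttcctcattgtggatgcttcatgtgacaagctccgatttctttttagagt
Ankrd1: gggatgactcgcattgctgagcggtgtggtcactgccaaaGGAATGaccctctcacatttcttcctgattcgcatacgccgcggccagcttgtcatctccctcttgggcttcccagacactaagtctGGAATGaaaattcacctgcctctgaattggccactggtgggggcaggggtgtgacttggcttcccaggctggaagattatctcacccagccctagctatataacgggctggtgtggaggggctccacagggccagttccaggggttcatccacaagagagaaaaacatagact
Myh7: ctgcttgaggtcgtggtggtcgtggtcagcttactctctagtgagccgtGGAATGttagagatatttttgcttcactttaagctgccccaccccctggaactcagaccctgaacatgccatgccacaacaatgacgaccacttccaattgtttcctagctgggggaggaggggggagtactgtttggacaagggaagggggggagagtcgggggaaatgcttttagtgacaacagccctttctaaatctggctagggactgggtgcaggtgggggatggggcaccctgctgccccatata
The Ifit3 window (chr19:34583279-34583578, plus strand) held 2 matches, both on the opposite strand to the gene. The Ctss window (chr3:95526536-95526835, plus strand) held 1. The Ankrd1 window (chr19:36119795-36120094, minus strand) held 2 CATTCC matches and the Myh7 window (chr14:54994577-54994876, minus strand) 1, all on the strand opposite to the gene. The paired GAAA motif was present in 3.44% of 32851 promoter windows of the mouse genome and in 6 of the 96 genes called higher that had a window. CATTCC was present in 14.7% of all windows and in 21 of the 96. The percentages count windows, while a called gene counts if any of its windows held the motif, so these are unlike measures. These motifs do not overlap each other in sequence, and a match is a description of the letters only.

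Cell cycle and immediate early genes gave few calls, though many were higher before adjustment. Of all genes tested, 0.849% were called higher and 9.31% were higher at an unadjusted p under 0.05. Of 24 cell cycle genes tested, edgeR called none and DESeq2 called 4, with 13 higher and 1 lower at an unadjusted p under 0.05 and a median log2 fold change of 1.55 that went to 0.78 without animal 250. Plk1, a mitotic kinase, was at 0.0492, 0.136 and 0.165 CPM in WT and 2.95, 1.18 and 0.486 CPM in animals 250, 631 and 645 (3.66 ± 0.76, adjusted p = 0.0502). Of 23 immediate early genes, Egr2, a zinc finger factor induced by growth signals, was the 1 called. Egr2 was at 0.590, 1.04 and 0.947 CPM in WT and 8.51, 9.47 and 4.02 CPM in 6E13 (3.08 ± 0.49, adjusted p = 0.0225). The median of the immediate early list was 0.61, and 10 of its 23 genes were higher and 0 lower at an unadjusted p under 0.05.

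Only 4 genes were called lower, Pkp2 included. Wdr59, a subunit of the GATOR complex that regulates mTORC1, was at 13.1, 9.64 and 13.9 CPM in WT and 5.88, 6.97 and 5.70 CPM in 6E13 (-0.98 ± 0.17, adjusted p = 0.0306). Amy1, an amylase of a family of near-identical copies whose estimates may be split among them, was at 12.2, 11.8 and 13.1 CPM in WT and 4.10, 7.22 and 5.96 CPM in 6E13 (-1.10 ± 0.23, adjusted p = 0.0498). The cKO mean of Wdr59 was 10.0 CPM, above that of 6E13, while the cKO mean of Amy1 was 3.66 CPM, below it. Mea1, named after its values were seen, was at 2.56, 2.31 and 1.11 CPM in WT and 0 in each 6E13 library in RV. In LV the same contrast of Mea1 was 1.17 ± 1.03, so its RV value is given as an uncertain estimate. Among falls that did not pass, where 1 group averaged 5 CPM or more, the one with the smallest unadjusted p was Cyb5r2, a cytochrome b5 reductase, at 9.69, 8.19 and 9.84 CPM in WT and 4.19, 4.24 and 5.17 CPM in 6E13 (-1.03 ± 0.23, adjusted p = 0.0697). The next 9 by unadjusted p were 3110057O12Rik (-0.77), Klhl3 (-0.72), Tspan7 (-0.37), Tm4sf1 (-0.60), Epm2aip1 (-0.34), Alad (-0.64), Eml3 (-1.19), Gm23547 (-0.57) and Dnaaf3 (-0.86), given as log2 fold changes, with adjusted p from 0.085 to 0.101.

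A pair of called rises, Atpaf2 and Gm10925, are uncertain for a related reason. Atpaf2, an assembly factor of ATP synthase, was at 0.246, 1.13 and 0.824 CPM in WT and 12.5, 12.7 and 14.4 CPM in 6E13 in RV (4.15 ± 0.77, adjusted p = 0.0375), while in LV its contrast was -1.40 ± 0.83. Gm10925, a predicted gene, was at 7.77, 0 and 8.69 CPM in WT and 798, 385 and 357 CPM in 6E13, and its 4 cKO libraries had an SD of 2440 CPM around a mean of 2408 CPM. Levels of Atpaf2 that switch between near 0 and about 10 CPM occurred within single groups of LV libraries too, and the way estimated counts are shared among transcripts was not tested here.

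The left ventricle (LV, 5 WT and 3 6E13 libraries) was fitted alone for the same contrast, with 14 of 16410 genes called (0.0853%) and 1025 at an unadjusted p under 0.05. The 6E13 animals and WT animals 636, 637 and 647 are those of the RV libraries, so the ventricles are not independent samples. All 151 genes called in RV were also tested in LV, where 147 had a fold change above 0. Their median was 0.99 in LV and 1.70 in RV. The 151 were picked by their RV values, which can push the RV median up, so these medians do not compare the ventricles. These 147 are not the 147 called higher in RV: Mea1, called lower in RV, is among them and Atpaf2 is not. Over all genes tested in RV the median log2 fold change in LV was 0.006. Genes called in each ventricle numbered 11, namely the vector transcript, Pkp2, Sfrp2, Cilp, Ltbp2, Col12a1, Mfap4, Igfbp7, Skil, Pak3 and Gm4841. Sfrp2 had a log2 fold change of 3.57 ± 0.19 in RV and 3.04 ± 0.49 in LV, and Cilp one of 4.10 ± 0.45 in RV and 2.58 ± 0.41 in LV. Myh7 was 2.32 ± 0.21 in RV and 2.18 ± 0.48 in LV, where it did not pass (adjusted p = 0.154). Igfbp7, a secreted binding protein of insulin-like growth factors, was 0.94 ± 0.16 in RV and 0.63 ± 0.09 in LV, Skil, a repressor of SMAD signalling, was 0.74 ± 0.15 and 0.52 ± 0.09, and Pak3, a p21-activated kinase, was 3.55 ± 0.50 and 2.73 ± 0.43, all picked after their values were seen. The direct test of the difference between the ventricles, with the animal as a block over 12 animals, called 0 of 17981 genes by edgeR, with 811 at an unadjusted p under 0.05 and 0 by limma voom. No gene was thus shown to differ between the ventricles in its response.

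**Figure D5:**
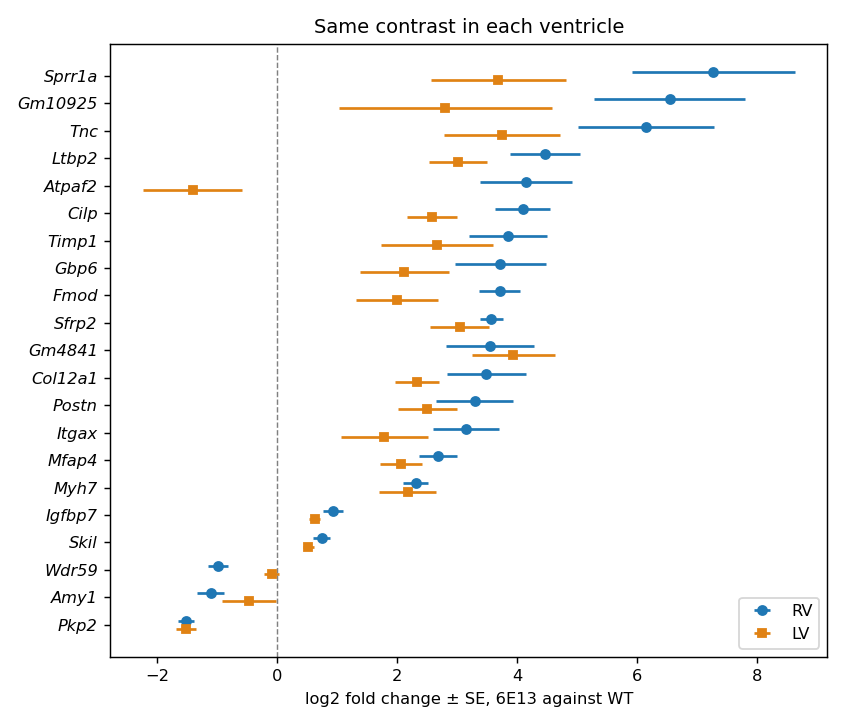
Log2 fold change of 6E13 against WT ± SE (x axis) in RV (circles) and LV (squares) for called genes named in the text (rows). Among the plotted genes, Sfrp2 lies on the same side of 0 in both ventricles (3.57 in RV, 3.04 in LV) and Atpaf2 does not (4.15 in RV, -1.40 in LV), and Mea1, which is also on opposite sides, is not plotted.

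Markers of other tissues that an RV piece could hold were read in the same libraries. The atrial markers Myl4, Myl7 and Sln averaged 0.974, 0.213 and 0 CPM in WT and 0.843, 0.118 and 0 CPM in 6E13, and of 9 atrial muscle markers Dkk3 alone was called. The 9 markers, Nppa among them, summed to 55.4 to 75.5 CPM in WT and 74.7 to 231 CPM in 6E13, with overlap, and the part of atrial tissue in these levels was not tested. Ventricular markers were present throughout, with the summed level of 9 genes at 31182 to 42638 CPM in WT and 29901 to 37910 CPM in 6E13. None of 12 endothelial markers was called by edgeR or DESeq2 and 0 had an unadjusted p under 0.05, with a median of -0.13.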

How the data were processed

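The authors sequenced RNA from ventricle pieces, trimmed reads with fastp 0.23.3 and quantified them with Salmon 1.8.0 on GRCm39, per the labels and the study's methods. They deposited estimated counts and TPM per gene. Per the labels 28 libraries were deposited, and 0 columns were left unmapped. Rows that name no gene held at most 0.001% of a library and were left out. Estimated counts were rounded, filtered with filterByExpr, scaled by TMM and fitted with edgeR 4.0.16 (R 4.3.3) over the 12 RV libraries with 4 groups in 1 fit. Calls took a Benjamini-Hochberg adjusted p under 0.05. The deposited TPM values served for an alternative fit with limma 3.58.1 on log2(TPM + 1), and DESeq2 1.42.0 for another. Further deposited columns of other kinds, such as transcript lengths, entered only as offsets in an alternative. The study compared pairs of groups on log TPM. The scripts were tested on simulated data.

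Members and the 40 gene lists were chosen with earlier results of these data known. Named genes were: Pkp2, the vector transcript and Esr1; the 15 largest called rises and falls with a mean of at least 5 CPM in a group and no overlap; where fewer qualified, falls with the smallest unadjusted p; up to 4 members per list; and genes the study follows. Other names are marked in the text. Where 3 counts are given as the limit of a count of 0, this covers counting error only. The animal numbers in the labels pair RV with LV libraries of the same animal, so the comparison of ventricles had the animal as a block. WT and 6E13 share no animal. Replicate pairs differed by more than sampling noise (chi-square per degree of freedom 29.3 to 117), so none was counted as a copy.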

Additional observations from a re-analysis of the deposited data

Results flagged for a closer look

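The cKO RV group, set beside the comparison, has 4 libraries, which allows a check for a library that lies apart from the other 3 by more than Dixon's 95% limit. Chance sets apart about 1 in 20 groups, and 5 of the genes named for this comparison (63 called and 59 not called) did so, which is near that share. For Atpaf2 the library apart was at 1.16 CPM against 10.3 to 12.1 CPM in the others. For Eml3 it was at 6.15 CPM against 11.7 to 12.1 CPM, and for Dnaaf3 at 1.71 CPM against 2.63 to 2.72 CPM. For Acta1 it was at 45.0 CPM against 13.7 to 17.2 CPM, and for Trbc2 at 0.957 CPM against 0.541 to 0.603 CPM. The groups of 3 libraries are too small for the check.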

How the results depend on the processing

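The 151 genes called became 266 without the low-count filter, 41 with sex as a covariate, 78 with only the WT and 6E13 libraries, 634 with DESeq2, 15 with limma on log2(TPM + 1) and 98 with limma on rescaled protein-coding TPM. Without single libraries the count ran from 15 to 279. Size factors in place of TMM gave 125, protein-coding genes 172 and length offsets 122. Genes called higher were 80.0% to 98.5% of calls throughout against 97.4%, and fell by over 10 percentage points only without WT animal 637. On log2(TPM + 1) the median of all genes was 0.18, and Jup (0.21), Dsc2 (0.051), Gja1 (0.18) and Ryr2 (0.052) turned above 0; none of these passed in the reported fit. Of 63 named called genes 7 were called in every alternative and all 63 kept their sign, and of 59 named genes not called 29 were called in some alternative. The cause of these shifts was not tested.

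For the ventricle comparison, the fit without the animal as a replicate block also called 0 genes (456 at an unadjusted p under 0.05), and the fit on WT and 6E13 animals alone 0 (976). Leaving out single WT or 6E13 animals, with the libraries of both ventricles, gave 0 to 3, the 3 (Atpaf2, Atxn1l and Zfp445) without 6E13 animal 631. Of alternatives added after the data were seen, DESeq2 called 97 genes in LV against 14, with 2 to 15 when libraries were left out, and 6E13 against cKO in RV gave 4651 with DESeq2 and 2039 to 3989 when libraries were left out, and cKO against WT 7059 and 5109 to 6401. The mitochondrial difference ran from -7.57 to -4.62 percentage points. With 3 libraries a group, counts near 0 limit what can be read for lymphocyte genes.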
